A study of Homo sapiens with 2 samples.

Results

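The HOX genes of the 4 human clusters were described in RNA-seq libraries of HCT116, an established line of human colon cancer cells with epithelial character. Members were the genes whose symbol is HOX followed by a cluster letter from A to D and a paralogue number. There were 39 of them among the 51640 symbols of the deposited tables: 11 in HOXA on chromosome 7, 10 in HOXB on chromosome 17, 9 in HOXC on chromosome 12 and 9 in HOXD on chromosome 2. Each had 1 row and status OK in both tables, so none was missing. The study's libraries form 1 group of 2, named PF and PJ, which the submitters call biological replicates; no treatment is named. The labels do not say what the letters stand for. The cells grew in DMEM with fetal bovine serum and antibiotics, and the results concern this 1 line. The series belongs to a study of colon cancer risk variants, and the normal colon libraries that its design names were not analysed here.

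HOX proteins are transcription factors with a DNA-binding homeodomain that set position along the head-to-tail axis of the embryo. Genes of a cluster lie side by side in the order of their paralogue numbers. Low numbers are used toward the head and high numbers toward the tail, and silent clusters are kept off by Polycomb complexes. Adult tissues keep part of this code, and the hindgut, from which the distal colon forms, is known for its use of posterior HOX genes. HOX proteins bind DNA together with partner proteins of the PBX and MEIS families.

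Levels are given as FPKM, fragments scaled by transcript length and by library size, with the deposited 95% bounds. Those bounds cover the uncertainty of a single library's estimate, not the spread between replicates. Expressed means that both libraries reached 1 FPKM. Library depth is unknown, since the tables hold no counts. Over symbols expressed in both, the median PJ to PF ratio was 1.19, or 0.25 on the log2 scale. As a check of the label, the epithelial genes KRT8, KRT18, KRT19, EPCAM and CDH1 were expressed, 5 of 5. KRT8 was at 760 FPKM for PF against 280 for PJ, and CDH1 at 21.9 and 1.80. KRT18 (216 and 147 FPKM) and EPCAM (213 and 143) were lower in PJ by less than 2-fold. KRT19 was at 306 and 325, so the libraries differed in some epithelial transcripts as well as in HOX genes.

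HCT116 expressed 20 of the 39 HOX genes, or 51.3%. Of all symbols 27.9% were expressed, and of protein-coding symbols 57.3%. The clusters differed in how many of their members passed: 9 of 11 in HOXA, 6 of 10 in HOXB, 4 of 9 in HOXC and 1 of 9 in HOXD. HOXB2 and HOXB8 passed in PF alone, and 3 genes, HOXC10 and HOXC13 among them, in PJ alone. The remaining 14 genes were under 1 FPKM in both libraries. The median of the mean log2(FPKM + 1) was 2.53 in HOXA, 1.96 in HOXB, 1.33 in HOXC and 0.11 in HOXD, against 2.21 over all protein-coding symbols and 0.05 over all symbols. Members of a cluster are neighbours on 1 chromosome and are not independent observations. In these bulk samples, fewer cells carrying a transcript and less of it per cell cannot be told apart.

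**Figure D1:**
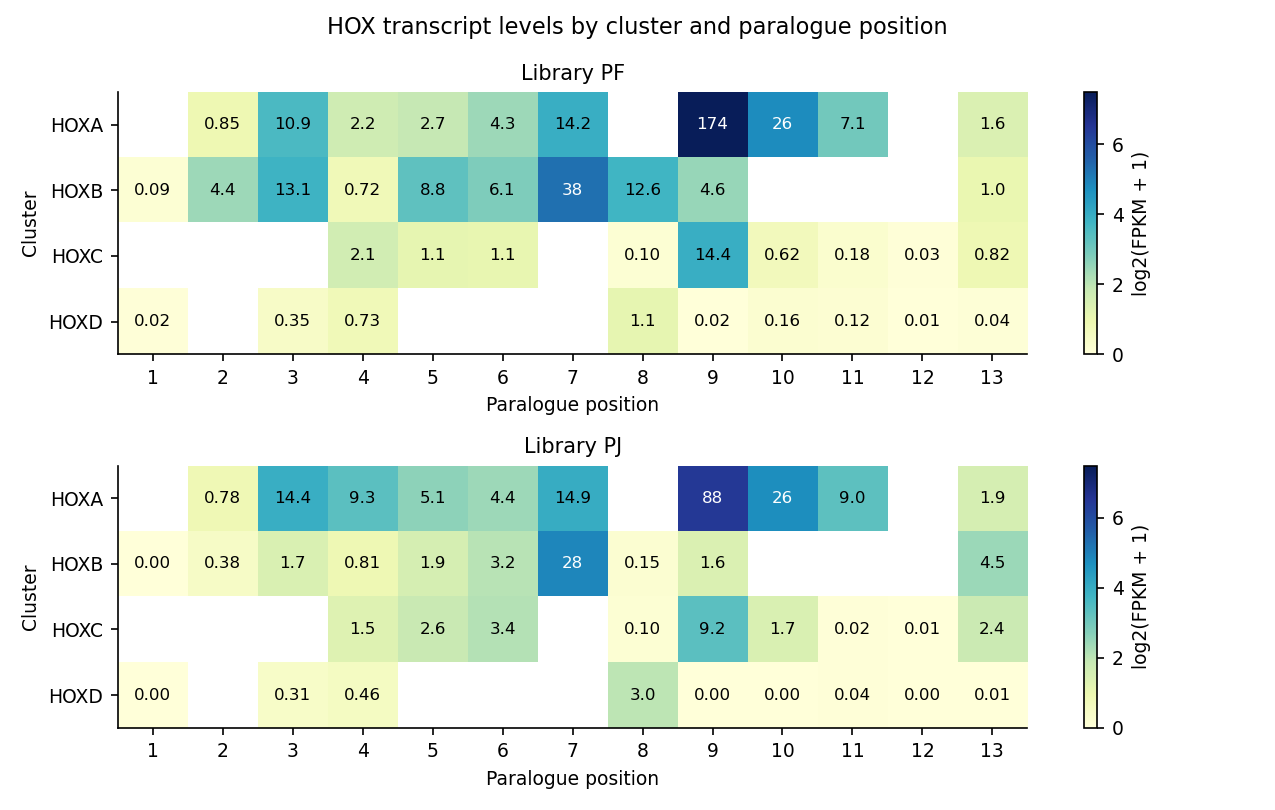
FPKM of each HOX gene (number in the cell, rounded) in libraries PF and PJ, by cluster (rows) and paralogue position (columns). Colour is log2(FPKM + 1), and white cells mark positions with no gene or a gene not shown. HOXA9 is the darkest cell in both libraries and the HOXD row is pale apart from HOXD8.

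Summed FPKM was dominated by a few genes. All 39 members together came to 357 FPKM in PF and 242 in PJ, and HOXA made up 68.5% and 72.2% of it. HOXB held 25.1% in PF and 17.5% in PJ, HOXC 5.74% and 8.65%, and HOXD 0.728% and 1.58%. HOXA9 alone was larger than any other member, and without it the sum was 183 FPKM in PF and 155 in PJ. Both libraries gave 10 FPKM or more for 5 members: HOXA9, HOXB7, HOXA10, HOXA7 and HOXA3.

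Few neighbours in the order of levels were apart in the same order in both libraries. Of the 38 pairs of neighbours in the order of mean FPKM, 2 had bounds apart with the same order in both libraries: HOXA9 above HOXB7, and HOXA10 above HOXA7. For more pairs than these the order turned between the libraries beyond the bounds. HOXB8 was above HOXA4 in PF and below it in PJ, and HOXB5 stood above HOXB6 in PF and below it in PJ. Estimates lay within their own bounds in both libraries for 36 members. HOXA9 and HOXB7 were above their upper bounds in both libraries and HOXB8 in PF, so the bounds of these 3 do not describe their estimates, and the pair of HOXA9 and HOXB7 rests on such bounds.

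**Figure D2:**
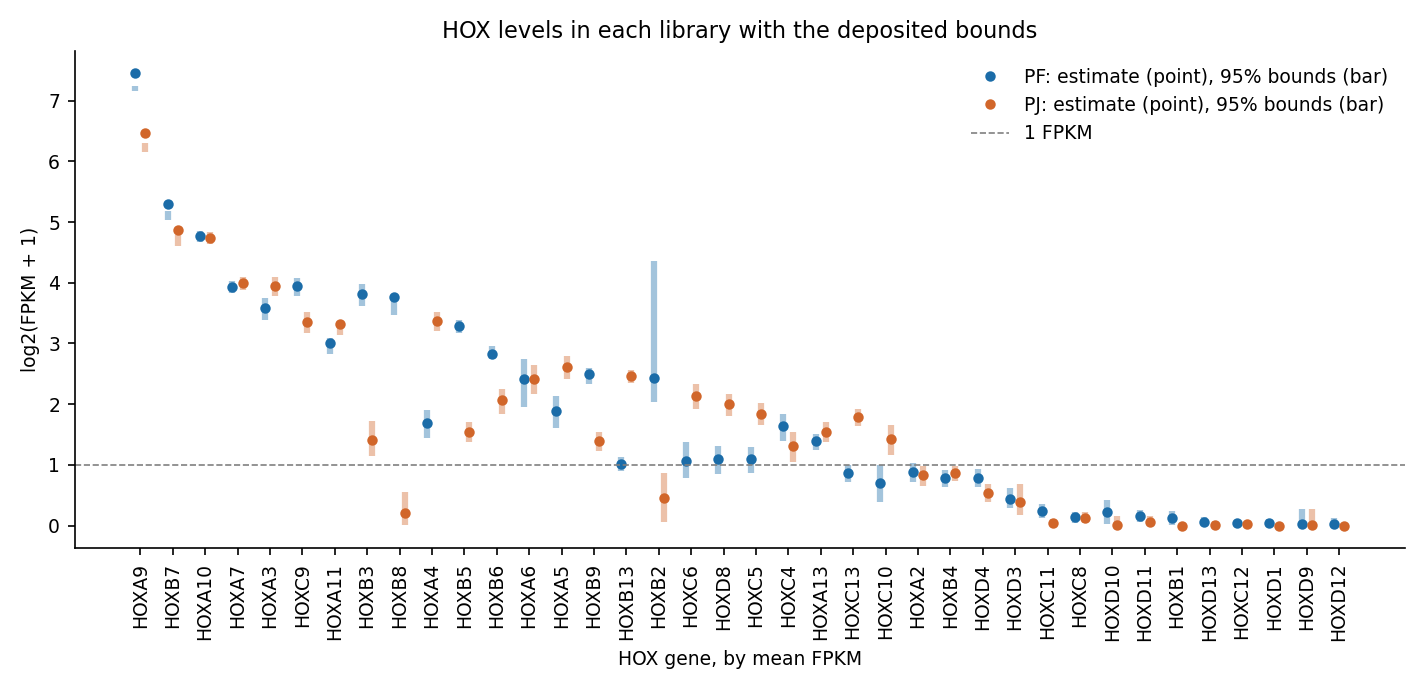
log2(FPKM + 1) of 38 HOX genes in order of mean FPKM. Points are the estimates and bars the deposited 95% bounds, blue for PF and orange for PJ. The dashed line is 1 FPKM. The points of HOXA9 lie above their bars, and those of HOXB3, HOXB8, HOXB5 and HOXB2 are far apart between the libraries.

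HOXA had the highest summed FPKM, most of it from HOXA9, and its genes from HOXA3 to HOXA13 formed an unbroken run of 9 expressed genes. Its median level was above that of HOXB in PJ (3.32 and 1.41 on the log2 scale) and below it in PF (2.41 and 2.66). HOXA9 (ENSG00000078399.11; hg19, chromosome 7, 27202054 to 27210117), a regulator of blood progenitors known for its part in leukaemia, was at 174 FPKM (bounds 141 to 150) in PF against 87.5 (70.4 to 77.5) in PJ. It lay at the 96.6 percentile of protein-coding symbols by mean FPKM. HOXA10 (ENSG00000253293.3; 27210210 to 27219880), which acts in the uterus and in blood cells, was at 26.2 FPKM (24.5 to 27.9) in PF against 25.7 (23.9 to 27.5) in PJ. HOXA9 was therefore lower in PJ while its neighbour HOXA10 had overlapping bounds. A row named RP1-170O19.20 spans parts of both genes, and the antisense row HOXA-AS4, at 12.5 and 21.8 FPKM, overlaps both as well. How the authors treated strand is unstated in these sources, so reads of HOXA9, HOXA10 and these rows may not be separable.

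The anterior and central HOXA genes were lower. HOXA7 (chromosome 7, 27193335 to 27197555), a gene of the trunk region, was at 14.2 FPKM (13.2 to 15.3) in PF against 14.9 (13.7 to 16.1) in PJ, and HOXA3 (27145816 to 27192200), needed for thymus and parathyroid development, at 10.9 (9.497 to 12.4) and 14.4 (12.7 to 16.1). HOXA6 (27185015 to 27192217) was at 4.31 FPKM (2.89 to 5.73) in PF against 4.36 (3.48 to 5.25) in PJ. HOXA7 and HOXA6 had overlapping bounds, and HOXA3 was slightly higher in PJ. HOXA4 (27168126 to 27170418) was at 2.22 FPKM (1.72 to 2.72) in PF against 9.33 (8.25 to 10.4) in PJ, 4.2 times higher in PJ. HOXA5 (27180671 to 27183287), which acts in lung development, was at 2.71 (2.06 to 3.41) and 5.13 (4.36 to 5.95). HOXA3 spans HOXA4, HOXA5 and HOXA6 in the tables, so these values depend on how reads were divided between overlapping transcripts.

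At the ends of the cluster the levels fell. HOXA11 (27221129 to 27224842), known for limb, kidney and uterine development, was at 7.08 FPKM (6.09 to 7.52) in PF against 8.97 (7.85 to 9.39) in PJ. HOXA13 (27233122 to 27239725), the posterior gene of digits, hindgut and genital tract, was at 1.62 (1.38 to 1.86) and 1.93 (1.58 to 2.26). HOXA11 bounds were apart by a small margin and those of HOXA13 overlapped. Toward the other end HOXA2 (27139721 to 27142430), which patterns the pharyngeal arches, was at 0.850 FPKM (0.654 to 1.05) in PF against 0.776 (0.580 to 0.972) in PJ. HOXA2 passed the threshold in neither library.

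Promoter sequences are shown for the highest HOX gene, for the single expressed HOXD gene and for a HOXD gene near 0. A start shared by 2 HOXC genes is shown as well, so the sequences cover expressed members and a near-silent one. They are the 200 bases before the RefSeq start on GRCh38.p14, in the direction of transcription, with each CG dinucleotide in capitals. HOXA9 is at chr7:27165538-27165737 on the minus strand, and HOXD8 at chr2:176129505-176129704, HOXD13 at chr2:176092521-176092720 and HOXC4 with HOXC5 at chr12:54016688-54016887 on the plus strand.
HOXA9: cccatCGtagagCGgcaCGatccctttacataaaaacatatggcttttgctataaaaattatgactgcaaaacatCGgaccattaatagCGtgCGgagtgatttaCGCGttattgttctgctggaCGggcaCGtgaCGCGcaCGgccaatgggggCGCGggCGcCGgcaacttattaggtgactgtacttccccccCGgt
HOXD8: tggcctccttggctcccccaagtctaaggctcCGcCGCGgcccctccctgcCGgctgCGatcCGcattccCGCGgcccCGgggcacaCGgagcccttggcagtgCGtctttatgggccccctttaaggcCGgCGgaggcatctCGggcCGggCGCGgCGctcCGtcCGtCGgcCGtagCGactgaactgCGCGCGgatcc
HOXD13: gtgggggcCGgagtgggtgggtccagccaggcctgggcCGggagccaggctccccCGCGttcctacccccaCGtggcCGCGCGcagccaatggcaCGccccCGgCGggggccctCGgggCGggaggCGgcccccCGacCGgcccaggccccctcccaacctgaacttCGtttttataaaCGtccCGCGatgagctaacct
HOXC4 and HOXC5: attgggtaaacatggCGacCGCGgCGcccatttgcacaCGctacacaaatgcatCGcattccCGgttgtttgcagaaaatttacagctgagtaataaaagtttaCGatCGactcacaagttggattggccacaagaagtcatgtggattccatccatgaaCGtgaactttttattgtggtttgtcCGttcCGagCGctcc

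CG dinucleotides are targets of DNA methylation and are dense at many developmental gene starts. The 4 sequences hold 18, 26, 20 and 13 of them. RefSeq promoter windows of 300 bases were found for 20 of the 39 members, in 26 distinct windows, since HOXA3 has several starts and HOXC4 and HOXC5 share 1. Their median was 22.5 CG per window, against 14 over all 35116 promoters of the table. Windows of expressed members ranged from 0 to 44 CG (17 windows, median 22), and those of members under 1 FPKM in both libraries from 4 to 36 (9 windows, median 23). The near-silent HOXD1 had 36, more than HOXA9 with 22, so the number of CG in the window did not separate the expressed from the low members. The letters TTTATNG, known to be bound by CDX and posterior HOX proteins, were found on either strand in 6 of the 26 windows, or 23.1%, against 9.73% of all promoters. All 6 belonged to expressed members (HOXA3 with 2 starts, HOXA9, HOXA10, HOXD8 and the start shared by HOXC4 and HOXC5). Expressed members held 17 of the 26 windows, mostly in HOXA, and the windows of low members were mostly in HOXD. HOXB had a window for HOXB1 alone, and HOXC only the shared start. A link between the motif and expression was not tested. TATAAA, the TATA box letters, was in 5 of the 26 windows, or 19.2%, against 11.5% of all promoters, those of HOXA3, HOXA9, HOXA10 with 2 starts and HOXD13. The motifs overlap where TTTATAG occurs. A match describes letters in a window and no binding was measured.

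HOXB was active in PF and lower in PJ over most of its length. HOXB7 (ENSG00000120087.8; chromosome 17, 46684594 to 46688379), a gene often studied in carcinomas, was the highest, at 38.2 FPKM (31.6 to 35.1) in PF against 28.2 (23.4 to 26.7) in PJ. HOXB3 (46626232 to 46682274), a gene of hindbrain patterning, was at 13.1 FPKM (11.3 to 14.9) in PF against 1.67 (1.21 to 2.31) in PJ, 7.84 times lower in PJ. HOXB8 (ENSG00000120068.5; 46688739 to 46692478), which acts in myeloid progenitors, was at 12.6 FPKM (10.1 to 12.5) in PF against 0.150 (0.0125 to 0.467) in PJ, a log2 ratio of -3.56 on the FPKM + 1 scale. Its PF estimate lies above its own bounds and its PJ value is near 0, so the size of the fold is uncertain. HOXB8 had the largest log2 ratio of all members and dropped under the threshold in PJ, between HOXB7 and HOXB9, which stayed above it.

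The central genes HOXB5 and HOXB6 lay between these extremes. HOXB5 (46668619 to 46671323), which acts in gut innervation and vessel development, was at 8.76 FPKM (8.01 to 9.52) in PF against 1.92 (1.60 to 2.25) in PJ. HOXB6 (46671639 to 46682354), expressed in blood and lung development, was at 6.12 (5.70 to 6.74) and 3.17 (2.57 to 3.78). HOXB9 (46698518 to 46703839), a gene of rib patterning, was at 4.63 FPKM (4.04 to 5.06) in PF against 1.63 (1.34 to 1.91) in PJ. All 3 had PF bounds above the PJ bounds. HOXB2 (46618256 to 46623441), of hindbrain and facial nerve patterning, was at 4.37 FPKM (3.11 to 19.6) in PF against 0.378 (0.0466 to 0.830) in PJ. Its upper bound in PF was wide, so its PF level is less certain than the others, although the bounds did not overlap.

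The remaining HOXB genes were low in PF. HOXB4 (46652875 to 46657473), known for expanding blood stem cells, was at 0.725 FPKM (0.558 to 0.891) in PF against 0.814 (0.660 to 0.969) in PJ, with overlapping bounds. HOXB13 (46802125 to 46806540), the prostate and distal gut gene at the far end of the cluster, was at 1.03 (0.859 to 1.20) and 4.50 (4.10 to 4.91), 4.38 times higher in PJ. HOXB1 (46605888 to 46608359), a hindbrain gene, was at 0.0919 FPKM in PF, with a listed 0 in PJ. HOXB13 was thus the only HOXB gene with PJ bounds above PF, and it is separated from HOXB9 by a long interval without other HOX genes.

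The neighbourhood of HOXB is shown from the flanking gene SKAP1, which encodes a T cell adaptor protein, to HOXB13. SKAP1 (chromosome 17, 46210802 to 46507637) was at 2.84 FPKM (2.17 to 3.28) in PF against 0.00189 (0.00108 to 0.225) in PJ. The antisense rows HOXB-AS1 and HOXB-AS2 were at 1.499 and 1.249 FPKM in PF and at 0.102 and 0.0129 in PJ. Of the 12 rows in this interval with a mean of 1 FPKM or more, 6 were at least 2-fold lower in PJ (SKAP1, HOXB2, HOXB3, HOXB5, HOXB8 and HOXB9) and 1 was at least 2-fold higher (HOXB13). Over all symbols with such a mean, 5.22% were lower and 10.4% higher by that rule. The interval was drawn to start at SKAP1 with its values known. Overlapping transcripts and unstated strand handling mean that HOXB3, its antisense rows, HOXB4, HOXB5 and HOXB6 may share reads. A row named RP11-357H14.19, whose identifier now carries the symbol HOXB7, overlaps HOXB7, HOXB8 and HOXB9 and was at 1.42 and 1.26 FPKM; adding it to HOXB7 gave 39.6 in PF and 29.5 in PJ.

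**Figure D3:**
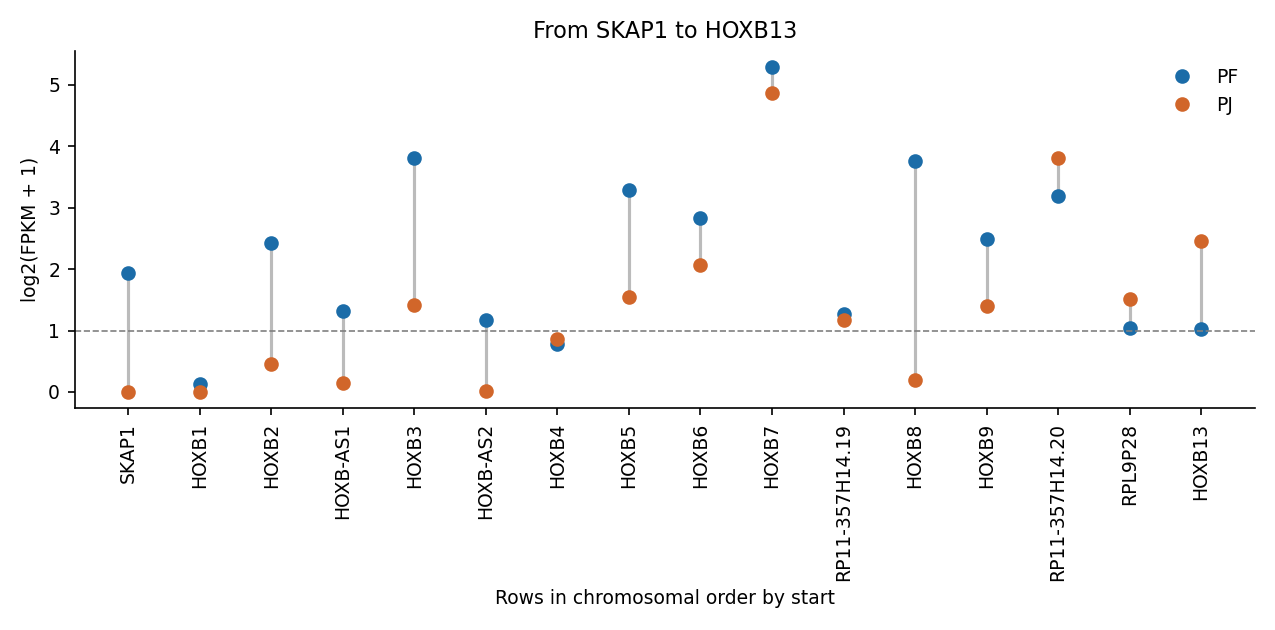
log2(FPKM + 1) in PF (blue) and PJ (orange) of the rows from SKAP1 to HOXB13 that reach 1 FPKM in at least 1 library, with HOXB1 and HOXB4 added, in chromosomal order by start. Grey lines join the 2 libraries and the dashed line is 1 FPKM. PF lies above PJ for the rows from SKAP1 to HOXB9 other than HOXB4, and below it for HOXB13.

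The clusters also hold microRNA genes that are known to repress HOX transcripts, and the HOXB8 site is the textbook case, so it is shown here for the member with the largest difference. miR-196a comes from a gene in HOXB and a gene in HOXC, miR-196b from a gene inside the HOXA9 row, and miR-10a from a gene in HOXB. Mature sequences are those of RefSeq on GRCh38.p14 with the seed, bases 2 to 8, in capitals. miR-196a-5p is encoded at chr17:48632532-48632553 and chr12:53991762-53991783, miR-196b-5p at chr7:27169528-27169549 and miR-10a-5p at chr17:48579904-48579926. Target sites are from GENCODE release 29 transcripts, written as DNA on the transcript strand, with the bases opposite the seed in capitals. The sites of HOXB8 (chr17:48612770-48612791), HOXA7 (chr7:27154430-27154451), HOXB3 (chr17:48549467-48549489) and HOXC8 (chr12:54012231-54012252) lie in 3' untranslated regions on GRCh38.
miR-196a-5p: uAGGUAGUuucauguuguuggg
miR-196b-5p: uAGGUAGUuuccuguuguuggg
miR-10a-5p: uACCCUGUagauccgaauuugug
HOXB8 site for miR-196a: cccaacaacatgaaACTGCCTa
HOXA7 site for miR-196a: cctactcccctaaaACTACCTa
HOXC8 site for miR-196a: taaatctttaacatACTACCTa
HOXB3 site for miR-10a: tgacttaacgtgaaaACAGGGTa

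miR-196a-5p and miR-196b-5p share the seed AGGUAGU. The HOXB8 stretch pairs with miR-196a-5p at all 22 bases, 21 of them Watson-Crick pairs and 1 a G:U pair within the seed, and no other HOX 3' untranslated region paired at more than 19 of 22 without gaps. Because of the G:U pair, HOXB8 is not among the members with an exact seed match. The letters ACTACCT, the complement of the seed, were in the longest 3' untranslated region of 9 of the 39 members, or 23.1%, against 7.15% of 19120 protein-coding genes. With an A after them the match was in 6 of 39 (HOXA5, HOXA7, HOXA9, HOXB6, HOXB7 and HOXC8), or 15.4%, against 1.45%. HOXA7 holds 4 such sites. For miR-10a the letters ACAGGGT were in 3 members, HOXA3 and HOXB3 among them, or 7.69%, against 12.8% of genes. The median 3' untranslated region was 866 bases in HOX genes and 1105 in all genes. Members with a match included the highest, HOXA9, and the near-absent HOXC8. The 6 microRNA genes of the clusters were listed at 0 in both libraries, with the deposited status LOWDATA, so mature microRNAs were not measured and no repression was tested.

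HOXC was weaker and led by 1 gene. HOXC9 (ENSG00000180806.4; chromosome 12, 54388679 to 54397121), a gene of thoracic motor neurons, was at 14.4 FPKM (12.8 to 15.95) in PF against 9.25 (7.99 to 10.51) in PJ. HOXC4 (54410715 to 54449814), known from lymphoid cells, was at 2.11 (1.64 to 2.59) and 1.48 (1.06 to 1.90). HOXC9 was lower in PJ beyond the bounds, and HOXC4 had overlapping bounds. HOXC6 (54384408 to 54424607), a gene linked to mammary and prostate tissue, was at 1.099 FPKM (0.725 to 1.61) in PF against 3.37 (2.79 to 4.02) in PJ, and HOXC5 (54379629 to 54429145) at 1.14 (0.829 to 1.45) and 2.59 (2.16 to 3.03). These genes were higher in PJ, the opposite of HOXC9. In the tables HOXC5 spans HOXC6, HOXC8 and HOXC9 and overlaps HOXC10 and HOXC4, and HOXC4 and HOXC5 share a RefSeq start, so the division of reads among them is uncertain.

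The 5' end of HOXC held low genes that passed in PJ alone. HOXC13 (54332535 to 54340328), which controls hair and nail keratin genes, was at 0.824 FPKM (0.643 to 1.00) in PF against 2.44 (2.11 to 2.78) in PJ, 2.97 times higher. HOXC10 (54378849 to 54384063), of lumbar and hind limb patterning, was at 0.620 (0.311 to 1.01) and 1.68 (1.24 to 2.16), 2.71 times higher. Between them HOXC11 was at 0.183 and 0.0249 FPKM and HOXC12 at 0.0281 and 0.0146. HOXC8, a thoracic patterning gene beside HOXC9, was at 0.101 and 0.0955 FPKM. The 3 latter genes were under 0.2 FPKM. HOXC8 lies beside the expressed HOXC9, and HOXC11 and HOXC12 lie between HOXC10 and HOXC13, which passed in PJ alone.

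HOXD was nearly silent apart from HOXD8. HOXD8 (ENSG00000175879.7; chromosome 2, 176994422 to 176997423) was at 1.14 FPKM (0.811 to 1.48) in PF against 3.01 (2.50 to 3.52) in PJ, 2.64 times higher in PJ. Its lower bound in PF was under the threshold. HOXD4 (177015950 to 177020802) was at 0.730 and 0.456 FPKM and HOXD3 (177001340 to 177039577), a gene of neck vertebra patterning, at 0.352 and 0.307. The HOXD genes on both sides of HOXD8 were all under 1 FPKM in both libraries. The posterior genes HOXD9 to HOXD13, which pattern limbs and genitalia, ranged from 0.0138 to 0.163 FPKM in PF and from 0 to 0.0410 in PJ. HOXD13, mutated in inherited digit malformation, was at 0.0434 and 0.0112 FPKM. HOXD1 was at 0.0242 FPKM in PF and, like HOXD12, listed at 0 in PJ. The antisense row HOXD-AS2, which overlaps HOXD8, HOXD9 and HOXD3, was at 2.26 and 1.92 FPKM, above all of them in PF.

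By paralogue position the expressed genes were concentrated in the middle, and the summed FPKM at position 9, mostly through HOXA9. Positions 4 to 8 had 11 of 15 members expressed, positions 9 to 13 had 7 of 16 and positions 1 to 3 had 2 of 8. All members at positions 5, 6 and 7 were expressed, 8 of 8. Position 9 carried 54.0% of the summed HOX FPKM in PF and 40.7% in PJ. HOXA9 alone made up 174 of its 193 FPKM in PF and 87.5 of 98.4 in PJ. HOXC9 and HOXB9 were expressed there too, with HOXD9 at 0.0154 and 0.00131. No member at position 12 passed, and position 13 had 2 of 4 (HOXA13 and HOXB13). Paralogues of the same position differed between clusters: at positions 9 to 13 the count was 4 of 4 in HOXA and 0 of 5 in HOXD.

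The correlation between the libraries was lowest in HOXB. Across the 39 genes log2(FPKM + 1) correlated between PF and PJ (Pearson's r = 0.83, and by rank Spearman's rho = 0.81), a description across genes that are not independent. Within clusters r was 0.95 over 11 genes in HOXA, 0.55 over 10 in HOXB, 0.86 over 9 in HOXC and 0.91 over 9 in HOXD. The HOXD value rests on HOXD8 against 8 genes under 1 FPKM. Among the 25 members with a mean of 1 FPKM or more, 5 were at least 2-fold lower in PJ on the log2(FPKM + 1) scale, all in HOXB (HOXB2, HOXB3, HOXB5, HOXB8 and HOXB9). This is 20% of the members, against a background of 5.22% over all symbols at that level. The log2 ratios, PJ over PF, were -1.96, -2.40, -1.74, -3.56 and -1.097.

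Higher members were fewer and spread over clusters. HOXA4 (log2 ratio 1.68), HOXB13 (1.44) and HOXC6 (1.06) were at least 2-fold higher in PJ, 12% of the members against 10.4% of all symbols, which is near the background. With the median shift between the libraries divided out, the split was 2 higher and 6 lower, since HOXC6 fell under 2-fold and HOXA9, 1.98 times higher in PF as deposited, moved past it. The scale with a pseudocount of 1 understates low genes: with 0.1 the count was 8 higher and 5 lower of 25, against 14.5% and 7.1% of all symbols, with HOXC5, HOXC10, HOXC13 and HOXD8 among those added. The bounds of PJ lay above those of PF for 11 of 25 members, or 44%, as for 44.5% of all symbols, and the bounds of PF lay above those of PJ for 9, or 36%, against 18.2%. Of these 9, 7 were HOXB genes and the others HOXA9 and HOXC9. HOXA9, HOXB7 and HOXB8 are among the 9 although their estimates lie outside their own bounds, so their place in this count is uncertain. The median log2 ratio of the 25 members was 0.06, and that of all 15736 symbols with such a mean 0.22. By cluster it was -1.42 over 8 HOXB genes, 0.23 over 10 HOXA genes and 0.74 over 6 HOXC genes. No p-value was computed, because a single library stands on either side of each ratio. CDH1 and KRT8, 2 of the 5 epithelial genes, were at least 2-fold lower in PJ too, and their part in the HOXB difference was not tested.

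**Figure D4:**
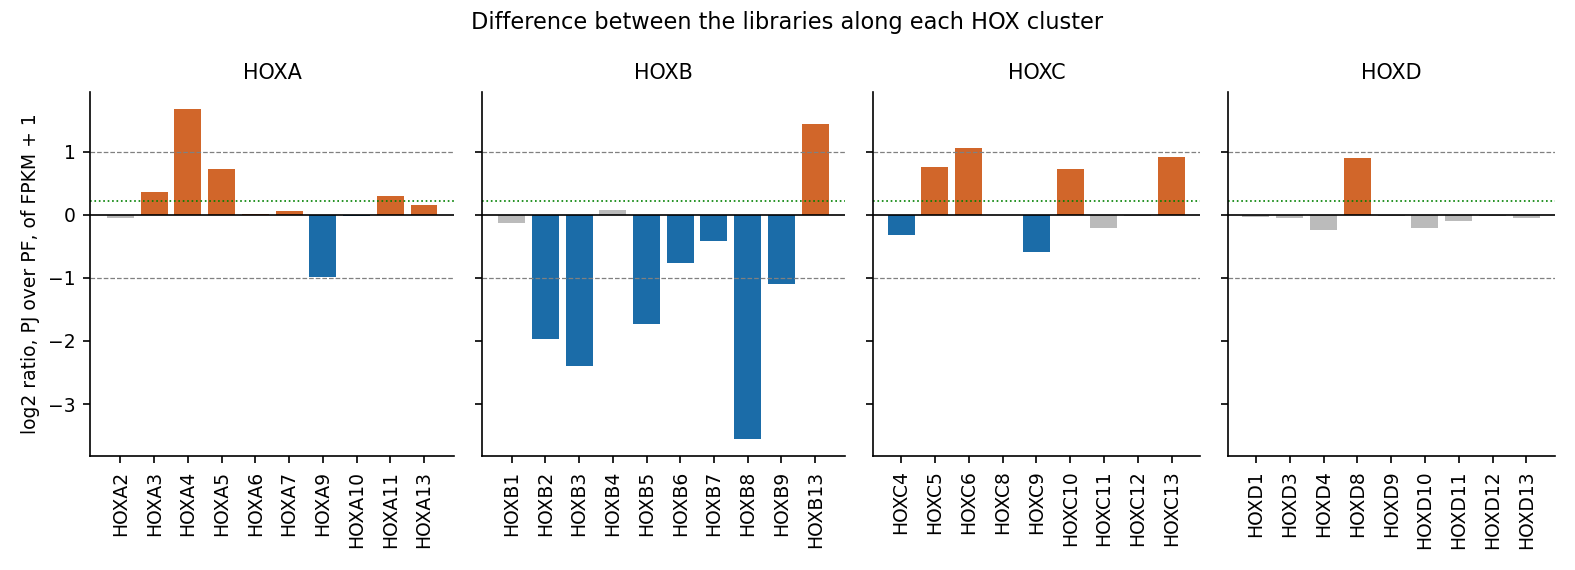
log2 ratio of PJ over PF (FPKM + 1) for 38 HOX genes, by cluster in paralogue order. Orange bars are higher and blue bars lower in PJ, grey bars are genes with a mean under 1 FPKM, dashed lines mark 2-fold and the green dotted line the median of 0.22 over all symbols whose mean reaches 1 FPKM. HOXB2 to HOXB9 point down apart from HOXB4, while HOXB13 points up, as do HOXC5, HOXC6, HOXC10 and HOXC13 in HOXC.

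Expression of partner and regulator genes of the HOX system differed between lists, beside 57.3% of protein-coding symbols. Of 9 genes of the TALE cofactors, 7 were expressed, led by PBX2 at 10.8 FPKM for PF against 15.9 for PJ, MEIS3 at 8.09 and 11.7, and PKNOX1 at 4.15 and 9.84. MEIS1, which works with HOXA9 in leukaemia, was close to 0 at 0.00194 and 0.000661, and so was PKNOX2 (0.0191 and 0.0198). On the log2(FPKM + 1) scale PKNOX1 was at least 2-fold higher in PJ. MEIS2, at 3.89 and 8.46 FPKM, had a log2 ratio of 0.95 on that scale and was past 2-fold on plain FPKM.

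The CDX genes, relatives of HOX genes that specify intestine and regulate HOX clusters, were represented by CDX2 alone. CDX2 was at 12.3 FPKM (10.7 to 13.9) in PF against 9.32 (7.94 to 10.7) in PJ, with bounds only just apart. In the list of CDX, ParaHox and EVX genes 1 of 8 was expressed. PDX1, a pancreas and duodenum gene, was at 0.723 and 0.456 FPKM and EVX1, next to HOXA13, at 0.0192 and 0.0678. CDX1 was at 0.000620 and 0.000410, and CDX4 was listed at 0.

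All 16 genes of the Polycomb list were expressed, and so were all 11 of a list named for the MLL complexes, which oppose Polycomb at HOX clusters. That list also holds KDM6B and DOT1L, which are not subunits of these complexes. PHC2 was at 70.7 FPKM for PF against 54.9 for PJ, BMI1 at 39.1 and 66.6 and EZH2, the histone methyltransferase, at 33.5 and 50.9. PHC1 was the lowest of the list, at 3.26 and 1.89. On the log2(FPKM + 1) scale CBX7 was at least 2-fold higher in PJ (2.12 and 6.81). PHC3, at 15.4 and 7.47 FPKM, was lower in PJ with a log2 ratio of -0.95 on that scale, just inside 2-fold, and past 2-fold on plain FPKM. In the MLL list PSIP1 was at 90.6 and 81.1 FPKM, DPY30 at 59.5 and 105.6 and WDR5 at 32.7 and 53.0, with KDM6B lowest at 2.38 and 4.18. MEN1, which tethers MLL to HOX genes, was the single member at least 2-fold higher in PJ (25.0 and 59.1). No gene of the MLL list was at least 2-fold lower in PJ on either scale.

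Retinoic acid activates HOX genes from the 3' end of a cluster. Of 14 genes of this pathway 7 were expressed, with CRABP2, a retinoic acid carrier, at 166 and 324 FPKM, the synthesis enzyme gene ALDH1A3 at 40.1 and 49.2, and the receptor gene RXRB at 14.8 and 18.2. The receptor gene RARB was at 0.00921 and 0.0191 FPKM, and ALDH1A1 was the lowest at 0.000374 and 0.000583. No gene of this list with a mean of at least 1 FPKM was 2-fold apart on the log2(FPKM + 1) scale. CYP26B1, which breaks down retinoic acid, came close at 4.53 and 9.95 FPKM and was past 2-fold on plain FPKM.

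The highest long noncoding RNAs of the clusters were 2 in HOXA. Besides the microRNA genes, 18 noncoding genes of the list had rows, 5 of them expressed and 10 under 1 FPKM in both libraries. The expressed share was near the 27.9% of all symbols. HOXA-AS4 was at 12.5 FPKM for PF against 21.8 for PJ, HOTAIRM1, at the HOXA2 end of its cluster, at 6.46 and 7.44, and HOXA-AS2 at 2.01 and 2.82. HOTAIR, the HOXC transcript linked to Polycomb, was at 0.0926 in PF, with a listed 0 in PJ, and HOTTIP, at the HOXA13 end, at 0.0373 and 0.162. HOTAIRM1 overlaps HOXA2 and was several times higher. Genes flanking the clusters were active, 9 of 12, led by HNRNPA1 (306 and 189 FPKM), MTX2 (29.2 and 40.1) and CBX5 (33.8 and 30.3), with PRAC, beside HOXB13, listed at 0. The neighbours of the near-silent HOXD cluster, MTX2 and KIAA1715 (8.78 and 8.98 FPKM), were thus both expressed. SKAP1 was the only flanking gene at least 2-fold lower in PJ.

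**Figure D5:**
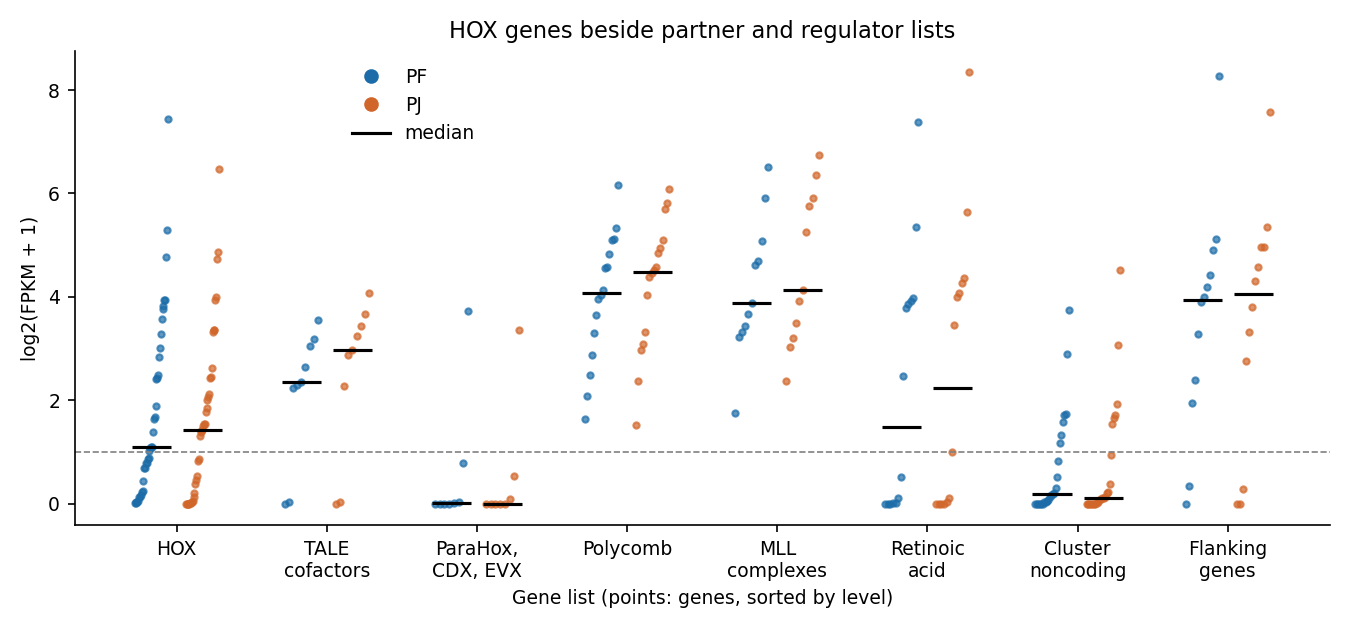
log2(FPKM + 1) of the HOX genes and of 7 gene lists in PF (blue) and PJ (orange). Each point is a gene, points of a list are sorted by level, black lines are medians and the dashed line is 1 FPKM. Every gene of the Polycomb and MLL lists lies above the line, while the noncoding genes of the clusters and the ParaHox, CDX and EVX list lie mostly near 0.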

How the data were processed

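RNA was sequenced from 2 HCT116 cultures with a TruSeq V2 kit, per the labels' protocols. Reads were processed with TopHat2 2.0.8b, TopHat and Cufflinks on hg19, per the submitters' processing notes; no source used here gives the Cufflinks version, annotation release or strand setting. Each library's deposited table holds FPKM from the authors with 95% bounds and a status column, per the file headers. Coordinates of these tables are hg19, printed with starts counted from 1.

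FPKM of rows sharing a symbol were summed, and symbols with a FAIL row (23 rows in PF, 20 in PJ) were treated as missing, which left 51609 of 51640 symbols. The threshold for expression was 1 FPKM, required in both libraries. PJ was set against PF by the log2 ratio of FPKM + 1, counted where the mean reached 1 FPKM. There is 1 library on each side, so no test was made. Gene types came from GENCODE release 29 by identifier (88.7% of rows matched; the HOXB7 row did not). Promoters and microRNAs came from RefSeq tables on GRCh38.p14 and target sites from GENCODE release 29; no coordinate was converted. The members, gene lists and rules were chosen with earlier results of these data known. The named genes are every HOX gene, and of each list the 3 highest, the lowest and some fixed by name; other genes named beside a count, and the sequences printed, were picked with their values known. A few genes that the rule covers are counted but not reported here by name. The 2-fold count was tested on simulated data. Thresholds, pseudocounts, the filter and the scaling were varied, and each library was used alone. Python 3.11.15, numpy 2.4.6, pandas 2.3.3, scipy 1.17.1 and matplotlib 3.10.9 were used.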

Additional observations from a re-analysis of the deposited data

How the results depend on the processing

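The count of 20 expressed HOX genes fell to 11 with a threshold of 2 FPKM (HOXB 2, HOXC 1, HOXD 0) and to 7 with 5 FPKM (HOXA 5, HOXB 1, HOXC 1, HOXD 0). Requiring the lower deposited bound at 1 FPKM or more left 2 in HOXC and 0 in HOXD. Single libraries gave 22 (PF) and 23 (PJ) expressed genes in all, 9 and 10 in HOXA, 8 and 6 in HOXB, 4 and 6 in HOXC, and 1 in HOXD in either. The median level on the log2 scale moved in HOXC to 0.62 and in HOXD to -2.61 with a pseudocount of 0.1, and to 0.52 and -4.44 with 0.01. With PJ alone and PF alone it was 3.32 and 2.41 in HOXA, 1.41 and 2.66 in HOXB, 1.42 and 0.87 in HOXC, 0.02 and 0.16 in HOXD. Members at least 2-fold higher in PJ rose from 3 to 8 with a pseudocount of 0.1. With a mean of 5 FPKM or more they were 1, and the lower members 3, because fewer genes were compared. Of the recomputed counts and cluster medians, 20 moved further than this limit: 1.5 times for counts, the spread between the libraries for medians. The other 64 stayed within it, single-library values printed above among them, such as the HOXB medians of 1.41 and 2.66. The spread comes from the single-library medians themselves, so it is a weak standard for them. This spread was wide in HOXB. The HOXB median of 1.96 fell to 1.35 with a pseudocount of 0.1 and to 1.29 with 0.01, and both still counted among the 64. No alternative turned the direction of a member that was 2-fold apart. Leaving 1 library out gives no library difference. Some alternatives were chosen after seeing the data: leaving out the 3 members with estimates outside their bounds, and adding the second HOXB7 row. Fragment numbers are unknown, so values far under 1 FPKM cannot be told from 0.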

Other observations

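The interval between HOXB9 and HOXB13 held a row that moved against its HOXB neighbours. RP11-357H14.20 (chromosome 17, 46713654 to 46724385 on hg19), chosen after its values were seen, was at 8.15 FPKM (6.97 to 9.33) in PF against 13.03 (11.5 to 14.5) in PJ. It was higher in PJ, like HOXB13 and unlike HOXB9. The antisense row HOXA11-AS, beside HOXA11, was at 0.770 FPKM (0.499 to 1.04) in PF against 2.28 (1.79 to 2.77) in PJ, while HOXA11 itself differed 1.27 times.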
